A study of Mus musculus with 19 samples.

Results

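Teneurins, latrophilins and FLRT proteins form a set of adhesion molecules that bind one another across cell contacts. The 10 genes that encode them in the mouse, Tenm1, Tenm2, Tenm3, Tenm4, Adgrl1, Adgrl2, Adgrl3, Flrt1, Flrt2 and Flrt3, were taken by name from the 47069 genes counted. The counts were from cells sorted as retinal ganglion cells (RGCs) that project to the same side of the brain (iRGCs) or the opposite side (cRGCs). All 4 teneurins and 2 of the 3 latrophilins, Adgrl1 and Adgrl3, had lower levels in the iRGC libraries, by 1.92-fold to 3.28-fold. Each of these genes still passed the test as lower when any 1 library was left out, though the size of the difference shifted. Of all 15941 genes tested, 23.1% passed the same test as lower in iRGCs and 23.3% as higher. Flrt2 was lower by 1.26-fold in a call that depended on the fit, and Adgrl2, Flrt1 and Flrt3 did not pass the test. These values are relative to the whole of each library. The iRGC libraries also held less RNA of general RGC markers and more RNA of progenitor markers than the cRGC libraries, as described below.

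The iRGC group was made of cells sorted for Sun1-GFP from whole E16.5 retinas of embryos carrying Slc6a4-Cre (the serotonin transporter gene as driver) and the Cre-dependent Sun1-GFP reporter in the Rosa26 locus. The cRGC group was made of cells sorted in the same way at E16.5 from embryos carrying Pou4f2-Cre and the same reporter, after the ventrotemporal (VT) region, where iRGCs arise, had been cut away. Both groups were on a C57/DBA F1 strain background, were labelled WT and pooled male and female embryos, and no group lacked a Cre or the reporter. Each group had 3 polyA RNA libraries, with 28193178 to 33638083 reads counted on genes per library. The labels do not say whether libraries of a group came from separate litters, so p-values measure the spread between these libraries. The paper also states that iRGCs are born later, so that at E16.5 they are younger on average than cRGCs. The driver line, the retinal region and this difference in age go together between the groups and cannot be told apart. In addition, Pou4f2-Cre was made by targeting the Pou4f2 locus itself, and whether the allele alters the level of Pou4f2 was not tested.

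Teneurins are large transmembrane proteins that pair with themselves and with latrophilins. Latrophilins are adhesion G protein-coupled receptors whose extracellular part binds teneurins and FLRTs, and FLRTs are leucine-rich repeat proteins that also bind the Unc5 family of netrin receptors. In the mouse visual system Tenm3 is known for aligning ipsilateral with contralateral maps, and Tenm2 for the development of the ipsilateral projection. Binding between teneurins and latrophilins depends on small alternatively spliced inserts, which counts per gene do not resolve.

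The family members are similar enough in sequence that the assignment of 50-base reads was checked first. Over aligned coding bases, identity between paralogs was 63.0% to 69.4% among teneurins, 63.6% to 68.4% among latrophilins and 57.1% to 62.2% among FLRT genes. The longest run of identical bases between any pair was 36 bases, between Adgrl1 and Adgrl2, and 29 bases among teneurins, between Tenm2 and Tenm4. No 50-base window of any annotated transcript of 1 of the 10 genes occurred in a transcript of another of them, on either strand. The aligned 60-base stretch of coding sequence around the longest shared teneurin run is shown to make this visible. Sequences are from the GENCODE M21 transcripts (GRCm38), read 5′ to 3′ on the coding strand, and capitals mark the 34 bases identical in all 4 genes. Each stretch lies within 1 exon, at chrX:42536637-42536696 on the minus strand for Tenm1, chr11:36024293-36024352 on the minus strand for Tenm2, chr8:48236279-48236338 on the minus strand for Tenm3 and chr7:96895216-96895275 on the plus strand for Tenm4.
Tenm1: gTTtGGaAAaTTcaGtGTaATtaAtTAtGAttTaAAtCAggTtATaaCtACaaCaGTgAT
Tenm2: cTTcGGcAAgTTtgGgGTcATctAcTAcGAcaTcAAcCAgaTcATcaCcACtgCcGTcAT
Tenm3: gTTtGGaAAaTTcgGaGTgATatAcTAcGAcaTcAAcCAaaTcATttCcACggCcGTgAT
Tenm4: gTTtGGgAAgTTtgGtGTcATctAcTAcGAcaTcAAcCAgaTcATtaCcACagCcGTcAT

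The matching stretch of the latrophilins holds the 36-base run shared by Adgrl1 and Adgrl2. Capitals mark the 35 of 60 bases identical in all 3 genes, and a lower-case base differs in at least 1 of them. The stretches lie within 1 exon each, at chr8:83933877-83933936 on the plus strand for Adgrl1, chr3:148837678-148837737 on the minus strand for Adgrl2 and chr5:81694454-81694513 on the plus strand for Adgrl3.
Adgrl1: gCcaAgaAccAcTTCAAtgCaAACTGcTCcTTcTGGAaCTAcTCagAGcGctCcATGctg
Adgrl2: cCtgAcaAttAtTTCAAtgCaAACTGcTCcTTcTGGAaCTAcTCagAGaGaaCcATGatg
Adgrl3: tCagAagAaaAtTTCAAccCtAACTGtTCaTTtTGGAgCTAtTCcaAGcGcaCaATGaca

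Overlap with genes on the opposite strand was larger than overlap between paralogs. Of the exonic bases, 15.6% of Adgrl1, 8.91% of Adgrl3, 8.26% of Tenm1 and 4.70% of Tenm4 also belonged to an annotated gene on the other strand, and whether the counting used strand is not given in the sources used here. The shares for Tenm3 and Adgrl2 were 1.11% and 1.42%, and Tenm2 and the 3 FLRT genes shared no exonic base.

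Before the levels, the labels were compared with the genes behind them. Slc6a4, the driver of the iRGC line, stood at 2.06, 33.4 and 116 CPM (counts scaled to 1e+06 per library after TMM scaling) in iRGC replicates 1, 2 and 3 and at 48.1, 35.4 and 30.5 CPM in cRGC replicates 1, 2 and 3. The library labelled iRGC replicate 1 was therefore below every cRGC library for this gene, and Slc6a4 was not called between the groups. Zic2, the transcription factor that marks iRGCs, was at 134, 173 and 157 CPM in the iRGC libraries and at 57.0, 60.2 and 65.7 CPM in the cRGC libraries, with no overlap and a log2 fold change of 1.34 (SE 0.13). These 2 genes were looked at outside the naming rule, after their values were seen.

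General cell type markers moved between the groups as well. By the test described below, 23.3% of all tested genes were called higher and 23.1% lower in iRGCs. Of 14 RGC markers, 13 were lower in iRGCs, with a median log2 fold change of -1.94. Their summed level was 3186, 4416 and 6472 CPM in iRGC replicates 1 to 3 and 16460, 15050 and 18310 CPM in cRGC replicates 1 to 3, with Tubb3, a neuronal tubulin, as the most abundant gene, and no marker was at 0 in all libraries. Of 15 progenitor markers, 14 were higher in iRGCs, with a median log2 fold change of 2.55 and summed levels of 10790, 9592 and 8513 CPM against 1810, 3050 and 2399 CPM. The leading progenitor gene was Ccnd1, a cyclin of dividing cells, and the defining markers Sox2 and Sox9 were present in every library. All 10 markers of neurogenic precursors were higher in iRGCs, with Hes6 as the most abundant gene, a median of 1.95 and summed levels of 1628, 1654 and 1585 CPM against 327, 584 and 477 CPM. These 3 counts were the same without iRGC replicate 1 and without iRGC replicate 2. In bulk libraries, fewer cells of a type and less RNA per cell cannot be told apart, and the part of these shifts in the results on adhesion genes was not tested.

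Endothelial markers varied among the iRGC libraries. Of 12 endothelial markers, 8 could be tested and all 8 were called higher in iRGCs, with 5 called without iRGC replicate 2 and 2 by limma voom. Markers near 0 in cRGCs passed the filter on low counts only through the iRGC libraries, so these counts support nothing, and with at least 10 counts in every library 2 were tested and 2 were higher. The list summed to 482, 770.4 and 434 CPM in iRGC replicates 1 to 3 and to 87.8, 108 and 70.8 CPM in the cRGC libraries. Kdr, a vascular growth factor receptor that retinal progenitors also express, was the most abundant, at 366, 320.5 and 418 CPM against 83.7, 103 and 67.6 CPM. The defining marker Pecam1 was at 9.65, 53.0 and 0.284 CPM in iRGCs and at 0, 0.725 and 0 CPM in cRGCs, and Cdh5 at 15.3, 81.3 and 0.158 CPM in iRGCs and at 0 in each cRGC library. Pecam1 and Cdh5 were thus highest in iRGC replicate 2 and near 0 in iRGC replicate 3. Kdr did not follow that order, and neither did Cldn5, a tight junction gene of vessels named after its values were seen, at 26.0, 25.2 and 11.8 CPM in iRGCs and 0.884, 2.93 and 2.20 CPM in cRGCs. Counts of calls are given below without these libraries.

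The quasi-likelihood test of edgeR was run on the counts of 15941 genes, and a gene was called a differentially expressed gene (DEG) at a Benjamini-Hochberg adjusted p below 0.1. At that threshold 46.4% of tested genes were called, 23.3% higher and 23.1% lower in iRGCs. A further requirement of an absolute log2 fold change above 1 left 23.1% of tested genes, and the libraries of the groups did not overlap for 55.3%. All 10 genes of the 3 families passed the filter on low counts. Of these, 7 were called lower, 0 were called higher and 3 were not called. DESeq2 and limma voom called 7 lower and 0 higher as well, and 0 were higher at an unadjusted p below 0.05 in edgeR. Their median log2 fold change was -0.95, beside 0.00 for all tested genes (-0.0031 before rounding). Libraries did not overlap for 7 of the 10, and 4, all teneurins, were called with an absolute log2 fold change above 1. Without iRGC replicate 1 the same 7 genes were called lower, and without iRGC replicate 2 the count was 6, since Flrt2 was lost. The count was 7 without iRGC replicate 3, with Flrt3 called in place of Flrt2.

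**Figure D1:**
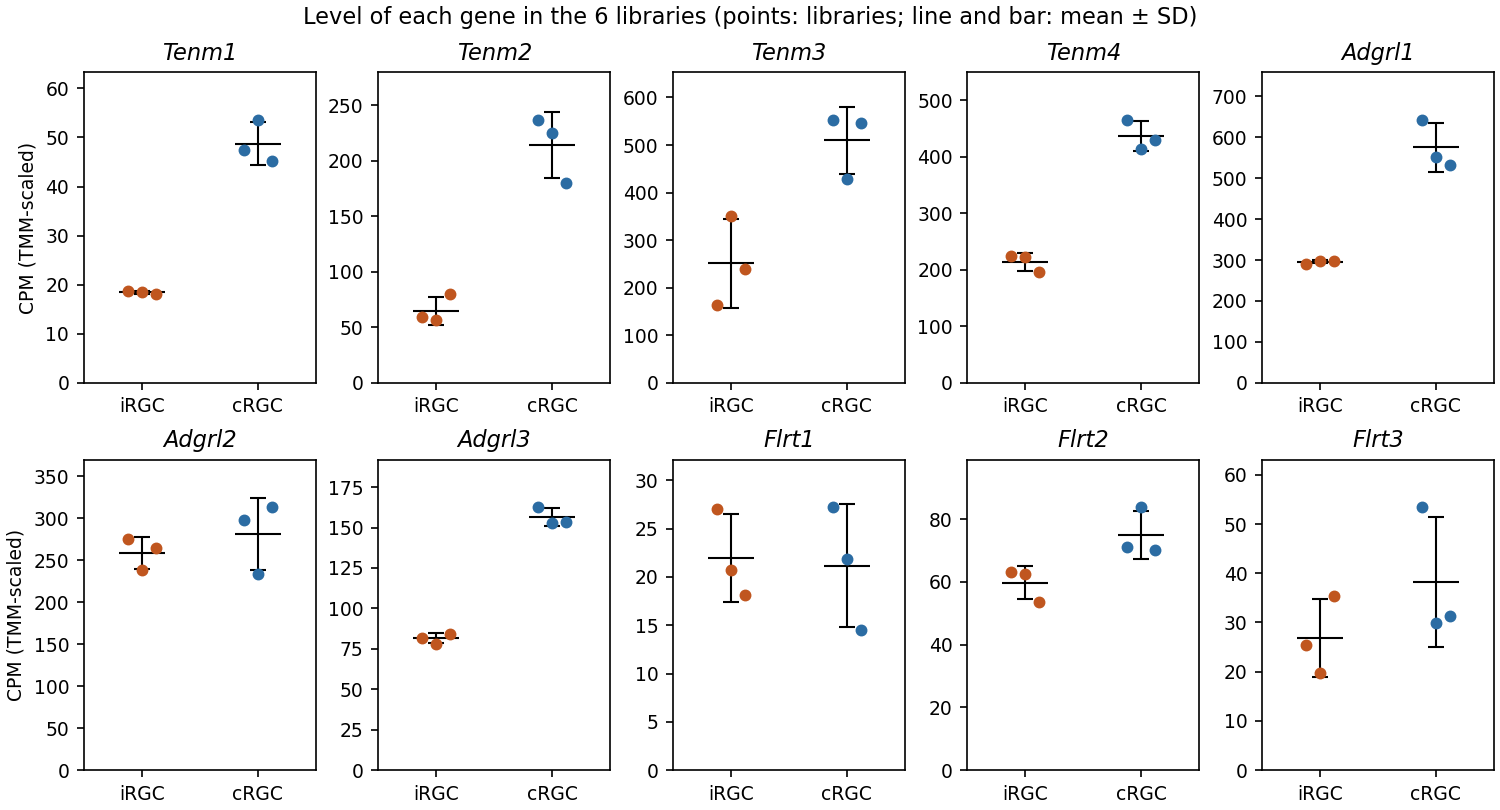
Level of each gene (y axis, TMM-scaled CPM, starting at 0) in the 3 iRGC and the 3 cRGC libraries (x axis), with points for libraries and a line and bar for mean ± SD. The groups are separate for Tenm1 to Tenm4, Adgrl1, Adgrl3 and Flrt2 and overlap for Adgrl2, Flrt1 and Flrt3.

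Among the teneurins, Tenm2 showed the largest difference of all 10 genes. It was at 59.5, 56.2 and 79.6 CPM in iRGC replicates 1 to 3 and at 237, 225 and 180.1 CPM in cRGC replicates 1 to 3. The highest iRGC library was therefore well below the lowest cRGC library. This is a 3.28-fold higher level in cRGCs (log2 fold change -1.72, SE 0.17, edgeR adjusted p = 2.14e-04), and leaving out single libraries gave -1.89 to -1.62. Tenm2 lies at chr11:36006656-37235964 on the minus strand and spans 1229309 bases, the longest of the 10 genes.

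Tenm1, the X-linked teneurin at chrX:42527866-43429126 on the minus strand, was the least abundant member of its family in both groups. Its level was 18.8, 18.5 and 18.1 CPM in iRGCs and 47.4, 53.6 and 45.1 CPM in cRGCs. The iRGC libraries were nearly equal, with an SD of 0.326 CPM (n = 3), and the groups were separate. This corresponds to a log2 fold change of -1.40 (SE 0.14, edgeR adjusted p = 2.20e-04).

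Tenm3, at chr8:48227682-48843951 on the minus strand, had the widest spread. It was at 164, 349.9 and 240.3 CPM in iRGC replicates 1 to 3 and at 553, 429 and 547 CPM in cRGC replicates 1 to 3. All iRGC libraries were below all cRGC libraries, but iRGC replicate 2 was more than 100 CPM above its fellows. The log2 fold change of -1.02 (SE 0.24, edgeR adjusted p = 0.00974) was -1.33 without iRGC replicate 2 and -0.79 without iRGC replicate 1, and the gene was called in each case. Per library, the highest Tenm3 level in iRGCs fell on the library with the highest summed endothelial markers, whereas iRGC replicate 3, with Cdh5 at 0.158 CPM, still held more Tenm3 than iRGC replicate 1; whether endothelial RNA contributed was not tested.

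Tenm4, at chr7:96171246-96911093 on the plus strand, was even within both groups. Its levels were 224, 222 and 196 CPM in iRGCs and 466, 413 and 430.3 CPM in cRGCs. The groups were separated by more than the range within either one, and the log2 fold change was -1.03 (SE 0.11, edgeR adjusted p = 2.37e-04). With upper quartile factors or with the library total as the only scaling, Tenm3 and Tenm4 stayed called but lay within an absolute log2 fold change of 1, so that only Tenm1 and Tenm2 were past it.

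Among the latrophilins, which act as receptors of teneurins and FLRTs, Adgrl1 and Adgrl3 fell by nearly the same amount. Adgrl1, at chr8:83900105-83941954 on the plus strand, was at 291, 297 and 298 CPM in iRGCs and 643, 551 and 531 CPM in cRGCs. Adgrl3, at chr5:81020138-81825133 on the plus strand, was at 82.0, 78.1 and 84.4 CPM in iRGCs and 163, 153 and 153 CPM in cRGCs. For both genes the iRGC libraries were within a few CPM of each other and far below the cRGC libraries. Adgrl1 had a log2 fold change of -0.96 (SE 0.11, edgeR adjusted p = 2.78e-04). That of Adgrl3 was -0.94 (SE 0.10, edgeR adjusted p = 2.42e-04).

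Adgrl2 did not follow the other latrophilins. It lies at chr3:148815583-148990555 on the minus strand, and its level was 275, 238 and 264 CPM in iRGCs and 297, 233 and 313 CPM in cRGCs. The lowest library was a cRGC library and the highest was also a cRGC library, so the groups overlapped fully. The log2 fold change was -0.12 (SE 0.13, edgeR adjusted p = 0.518), with a 95% interval from -0.42 to 0.18, and was 0.09 with the library total as the only scaling. The interval leaves out a difference of the size measured for Adgrl1 and Adgrl3.

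The ratios within a library bear on this without any scaling between libraries. Adgrl1 had 1.06, 1.25 and 1.13 times the counts of Adgrl2 in iRGC replicates 1 to 3 and 2.16, 2.37 and 1.70 times in cRGC replicates 1 to 3. The groups did not overlap, and the mean log2 ratio differed by -0.84. Adgrl2 likewise had 3.35, 3.05 and 3.13 times the counts of Adgrl3 in iRGCs and 1.83, 1.52 and 2.05 times in cRGCs, a difference of 0.83 on the log2 scale. By contrast, the ratio of Adgrl1 to Adgrl3 was 3.56, 3.81 and 3.53 in iRGCs and 3.95, 3.60 and 3.47 in cRGCs, which overlap. An exact two-sided permutation test of 3 against 3 libraries cannot give less than 0.1. That smallest value was reached by the 2 ratios with Adgrl2 and by Tenm1 to Tenm4 and Tenm2 to Tenm4, and after adjustment over the 12 ratios it was 0.3, so no ratio passed a threshold.

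**Figure D2:**
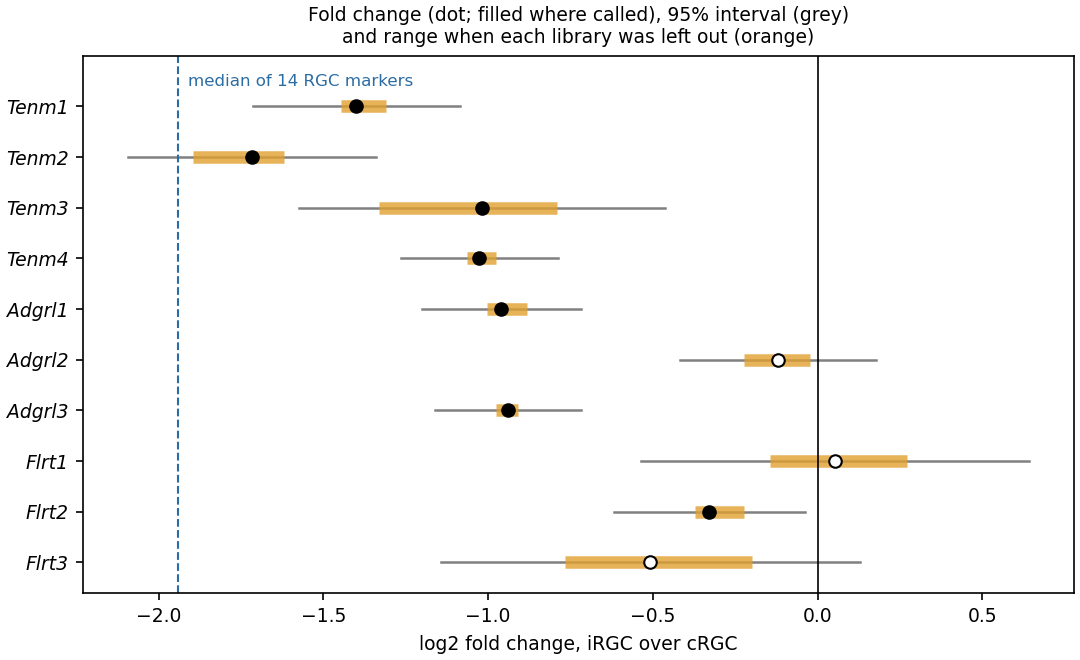
Log2 fold change of each gene, iRGC over cRGC (x axis; genes on the y axis), as a dot filled where the gene was called, with the 95% interval in grey and the range over fits that left out 1 library in orange. The 4 teneurins, Adgrl1 and Adgrl3 lie between -1.72 and -0.94, and all 10 dots lie to the right of the dashed line at -1.94, the median of 14 RGC markers.

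The FLRT genes, whose products bind latrophilins and Unc5 receptors, differed least. Flrt2, at chr12:95692226-95785215 on the plus strand, was at 63.2, 62.4 and 53.6 CPM in iRGCs and 71.1, 83.9 and 70.1 CPM in cRGCs. The groups did not overlap, but the gap between the nearest libraries was smaller than the range within each. Its log2 fold change was -0.33 (SE 0.13, edgeR adjusted p = 0.0709). The call was lost in 7 of 15 alternative fits, among them 5 of the 6 that left out a library, and adjusted p-values ran from 0.0609 to 0.530 over the 15.

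Flrt3, at chr2:140650914-140671469 on the minus strand, was at 25.5, 19.7 and 35.4 CPM in iRGCs and 53.5, 29.9 and 31.2 CPM in cRGCs. The groups overlapped, with iRGC replicate 3 above 2 of the cRGC libraries. For Flrt3 the log2 fold change was -0.51 (SE 0.28, edgeR adjusted p = 0.191), and without iRGC replicate 3 it was -0.77 with an edgeR adjusted p of 0.0634, past the threshold.

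Flrt1, at chr19:7092001-7105729 on the minus strand, was at 27.0, 20.8 and 18.1 CPM in iRGCs and 27.3, 21.8 and 14.5 CPM in cRGCs. The groups covered almost the same range. Their log2 fold change was 0.05 (SE 0.26, edgeR adjusted p = 0.897), and its sign changed when iRGC replicate 1 or cRGC replicate 3 was left out. The 95% interval, from -0.53 to 0.64, takes in the values measured for Flrt2 and Flrt3.

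Flrt1 and Flrt3 lie within the spans of larger genes on the opposite strand, Macrod1 (chr19:7056810-7198057) and Macrod2 (chr2:140395309-142392966), which encode ADP-ribose hydrolases. Macrod2 was at 24.5, 25.0 and 33.8 CPM in iRGCs and 69.7, 58.6 and 72.4 CPM in cRGCs, and was called lower (log2 fold change -1.27, SE 0.17, edgeR adjusted p = 5.07e-04). Its groups were far apart whereas those of Flrt3 overlapped. Macrod1 was low in all libraries, at 2.97 CPM in iRGCs and 2.47 CPM in cRGCs on average, and was not called.

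Levels were compared between genes as CPM per kilobase of exon. In iRGCs the order from high to low was Adgrl1, Tenm3, Adgrl2, Tenm4, Flrt2, Tenm2, Flrt3, Adgrl3, Flrt1 and Tenm1, from 34.4 ± 0.426 (SD, n = 3) for Adgrl1 to 1.04 ± 0.0184 for Tenm1. Libraries overlapped between neighbours for Adgrl1 and Tenm3, Tenm3 and Adgrl2, Tenm2 and Flrt3, Flrt3 and Adgrl3, and Adgrl3 and Flrt1, so the order among these is not resolved. In cRGCs Adgrl1 led with 67.0 ± 6.91 and Tenm3 followed with 49.8 ± 6.85, without overlap. Tenm4, Adgrl2 and Tenm2 came next at 20.8, 19.8 and 18.6 CPM per kilobase, and neighbours among these 3 overlapped. Tenm2 was above Flrt2 in every cRGC library and below it in iRGC replicates 1 and 2, and the 2 genes were level in iRGC replicate 3, at 6.93 and 6.94 CPM per kilobase. Lower down, Flrt2, Adgrl3 and Flrt3 overlapped as neighbours, and so did Flrt1 and Tenm1 at the bottom. The order rests on exon length, since with the length of the longest transcript Adgrl2 was at 42.8 and Adgrl1 at 36.1 CPM per kilobase in iRGCs.

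Summed over a family, the teneurins were at 41.5 ± 8.89 CPM per kilobase (SD, n = 3) in iRGCs and 91.9 ± 7.69 in cRGCs, which is 45.1% of the cRGC level. The latrophilins were at 57.3 ± 1.27 and 95.6 ± 8.27, or 59.9%. The FLRT genes were at 17.0 ± 1.21 and 21.2 ± 3.46, or 80.3%, with iRGC replicate 1 above cRGC replicate 3. The order of the latrophilin and teneurin sums rests on the length correction. Per kilobase of exon the latrophilin sum was the larger in each of the 6 libraries, by as little as 92.6 against 92.1 in cRGC replicate 3. In CPM without length, the teneurin sum was the larger in all cRGC libraries and in iRGC replicate 2.

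The make-up of each family was then described by the share of a gene in its family's counts per kilobase, which cancels scaling between libraries. Adgrl2 made up 33.4%, 30.1% and 32.0% of the latrophilins in iRGC replicates 1 to 3 and 19.95%, 18.4% and 23.8% in cRGC replicates 1 to 3. Adgrl1 made up 58.6%, 62.1% and 59.8% in iRGCs and 71.3%, 71.9% and 66.8% in cRGCs. The share of Adgrl2 was thus 11.1 percentage points higher in iRGCs, that of Adgrl1 was 60.2% on average against 70.0%, and neither overlapped. Adgrl3 stood at 8.02% in iRGCs and 9.24% in cRGCs, also without overlap, but the size of this difference rests on the length: it was -1.22 percentage points per kilobase of exon, -2.67 with no length correction and -3.32 with the longest transcript. With the longest transcript as the length, the shares of Adgrl2 were 47.0% and 33.2%, again without overlap.

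Per kilobase of exon, Tenm3 was the main teneurin in each library. It made up 48.6%, 67.4% and 57.6% in iRGCs and 54.3%, 49.8% and 58.0% in cRGCs, and the groups overlapped. In counts without length, Tenm3 was below Tenm4 in iRGC replicate 1, at 0.731 times its counts. Tenm2 made up 15.8%, 9.67% and 17.0% of the teneurins in iRGC libraries and 20.7%, 23.3% and 17.0% in cRGC libraries, where the nearest libraries, iRGC replicate 3 and cRGC replicate 3, differed only in the second decimal. The shares of Tenm1, Tenm4 and the 3 FLRT genes overlapped between the groups. Of the 10 shares, those of Tenm2 and the 3 latrophilins reached the smallest exact permutation p of 0.1, which was 0.25 after adjustment over the 10.

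**Figure D3:**
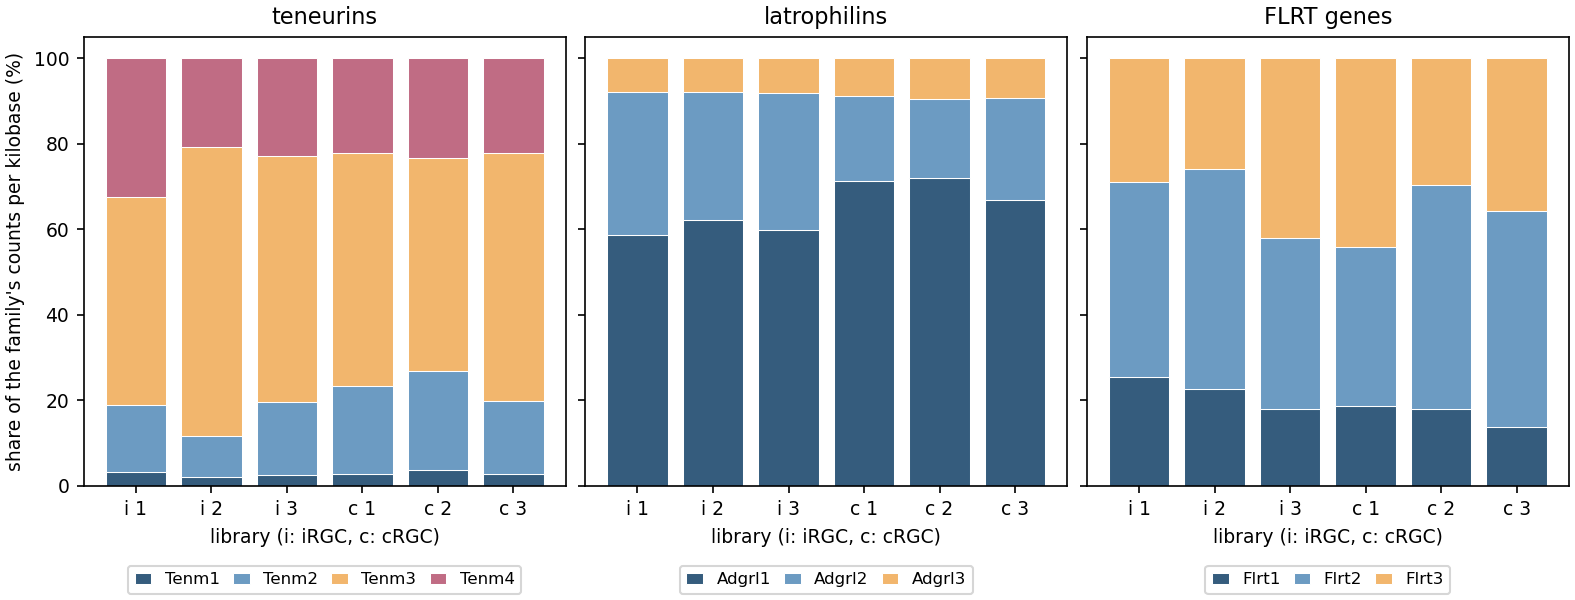
Share of each gene in its family's counts per kilobase (y axis, percent) in each library (x axis; i 1 to i 3 are iRGC and c 1 to c 3 are cRGC replicates), stacked to 100%. Adgrl2 takes 30.1% to 33.4% of the latrophilins in iRGCs and 18.4% to 23.8% in cRGCs, while the teneurin bars vary more among the iRGC libraries than between the groups.

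Set against RGC markers rather than the whole library, the same genes took another position. Per 1000 CPM of the 14 summed RGC markers, Tenm2 was at 18.7, 12.7 and 12.3 CPM in iRGC replicates 1 to 3 and 14.4, 14.9 and 9.84 CPM in cRGC replicates 1 to 3. These values overlap, as did those of Tenm1, at 5.90, 4.18 and 2.80 CPM against 2.88, 3.56 and 2.46 CPM. Adgrl2 was at 86.2, 53.9 and 40.8 CPM against 18.1, 15.5 and 17.1 CPM. In all, 8 of the 10 genes were higher in every iRGC library than in every cRGC library on this scale, and the 2 exceptions were Tenm1 and Tenm2. So were 78.5% of all tested genes, so the count of 8 says nothing particular about these genes. The 8 included Tenm3, Tenm4, Adgrl1 and Adgrl3, which were lower relative to the library total. Leaving Pou4f2 out of the markers gave the same counts. This scale was chosen after the data had been seen, is a description with no test, and divides by a sum that itself differed between the groups.

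Extracellular partners of the 3 families were read as a list of 11 genes, all of them tested. Of these, 5 were called lower, among them Nrxn2, Unc5a, Unc5c and Unc5d, 3 higher (Unc5b, Fgfr1 and Dag1) and 3 were not called (Robo1, Nrxn3 and Cntn6), and the median log2 fold change was -0.52. The median was -0.29 without cRGC replicate 3 and -0.78 without cRGC replicate 1, and in the latter fit 6 were lower. Without cRGC replicate 2 the call of Unc5a was lost (edgeR adjusted p = 0.106) and 4 were lower. Cntn6 was also called higher in 6 alternative fits: with upper quartile factors, the library total only, limma voom or at least 10 counts in every library, and without iRGC replicate 1 or cRGC replicate 2. Among all tested genes 23.1% were lower and 23.3% higher, so the number higher was near that share. Libraries did not overlap for 9 of the 11, beside 55.3% of all tested genes. Nrxn2, a presynaptic adhesion protein, went from 406, 363 and 338 CPM in cRGCs to 60.1, 78.7 and 115 CPM in iRGCs (log2 fold change -2.13, SE 0.22, edgeR adjusted p = 2.37e-04).

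The Unc5 receptors, which mediate repulsion by netrin and by FLRTs, did not move together. Unc5c, the most abundant of them in cRGCs, was at 41.8, 59.4 and 54.4 CPM in iRGCs and at 155, 163 and 173 CPM in cRGCs (log2 fold change -1.66, SE 0.14, edgeR adjusted p = 2.05e-04). Unc5d was lower by -1.89 (SE 0.57) and Unc5a by -0.77 (SE 0.24) on the log2 scale. Unc5b was higher in iRGCs, at 24.3, 70.3 and 13.8 CPM against 5.57, 6.87 and 10.8 CPM (log2 fold change 2.22, SE 0.55, edgeR adjusted p = 0.0117). Its iRGC values were widely spread, with the highest in iRGC replicate 2, where the endothelial list summed highest, and the part of endothelial RNA in this value was not tested. Without iRGC replicate 2 its log2 fold change was 1.29 and the gene was still called (edgeR adjusted p = 0.0305). Fgfr1, a growth factor receptor that FLRTs bind, was higher by 1.01 (SE 0.13) on the log2 scale, and Dag1, dystroglycan, by 0.75 (SE 0.12).

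Of 8 intracellular partners, 5 were called lower, 0 were called higher and 3 were not called, with a median log2 fold change of -0.90, beside 23.1% lower and 23.3% higher over all tested genes. The Shank scaffolds, which bind the tail of latrophilins, were all lower. Shank1 was at 44.1, 50.4 and 79.6 CPM in iRGCs and at 297, 241 and 200 CPM in cRGCs (log2 fold change -2.09, SE 0.24, edgeR adjusted p = 2.90e-04). Shank2 was lower by -1.25 (SE 0.15) on the log2 scale, and Shank3 by -0.84 (SE 0.18). Rnd1, a small GTPase that binds FLRT3, was scarce, at 1.49 CPM in iRGCs and 4.36 CPM in cRGCs, and its call (log2 fold change -1.55, edgeR adjusted p = 0.0440) was lost without iRGC replicate 2 (edgeR adjusted p = 0.1099), without any 1 cRGC library (0.106 to 0.119) and with no filter on low counts (0.107). The G protein subunits Gna12 and Gna13 and the methyl-DNA binding protein Mbd1 were not called, with Gna12 at 131, 138 and 158 CPM in iRGCs and 130.1, 127 and 137 CPM in cRGCs. In the main edgeR fit 0 partners of this list were higher at an unadjusted p below 0.05, and DESeq2 and limma voom each called 0 higher. With the library total as the only scaling, edgeR called 2 higher.

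The other adhesion G protein-coupled receptors were read as a list of 18. Of the 17 tested, 10 were called higher in iRGCs, 1 lower and 6 not, with a median log2 fold change of 0.91, beside 23.3% higher and 23.1% lower over all tested genes. Receptors at 0 in cRGCs passed the filter on low counts only through the iRGC libraries, so the count and the median describe the list and support nothing. With at least 10 counts in every library 11 were tested, 6 were higher and 2 lower, and the median was 0.32. limma voom called 7 higher. The 1 that was lower was Celsr3, a cadherin needed for axon tracts, at 165, 189 and 197 CPM in iRGCs and 501, 391 and 460.0 CPM in cRGCs (log2 fold change -1.30, SE 0.13, edgeR adjusted p = 2.17e-04). Adgrf5, an endothelial receptor, was at 11.2, 50.8 and 0.378 CPM in iRGCs and 0 in all cRGC libraries, at least 197-fold higher against a floor of 3 counts per library. Without iRGC replicate 2 this bound was 54.8-fold. Adgre1, a macrophage receptor, was at 1.67, 1.70 and 1.45 CPM against 0, at least 15.3-fold higher. Adgre5, a leukocyte receptor, was at 5.79, 15.98 and 0.725 CPM against 0, 0.173 and 0.194 CPM. Adgrf5 and Adgre5 were highest in iRGC replicate 2 and lowest in iRGC replicate 3, as Pecam1 and Cdh5 were. The more abundant Adgrv1, at 352, 244 and 229.6 CPM in iRGCs, and Celsr1, at 37.6, 34.6 and 28.3 CPM, both named after their values were seen and both called higher, did not have that order. The part of vascular or blood cell RNA in these calls was not tested, and without iRGC replicate 2 the number of receptors called higher was 9.

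**Figure D4:**
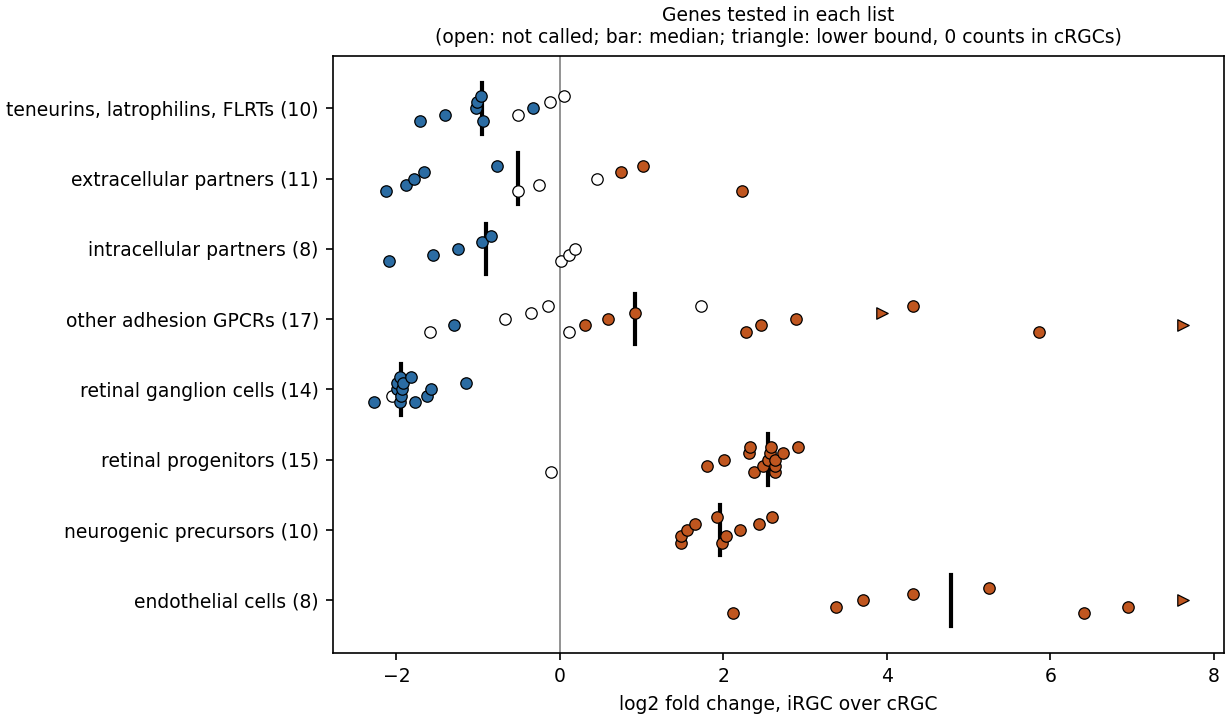
Log2 fold change, iRGC over cRGC (x axis), of the tested genes of each list (y axis, number tested in brackets), filled where called and open where not, with a bar at the list's median and triangles for lower bounds of genes with 0 counts in cRGCs. The adhesion genes, with a median of -0.95, lie between the RGC markers at -1.94 and the progenitor markers at 2.55, and the other adhesion receptors have a median of 0.91.

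Teneurins are graded across the retina, so genes of retinal position were read as well. Over all tested genes, 23.3% were called higher and 23.1% lower in iRGCs. Of 6 dorsal genes, 5 were higher in iRGCs, among them Tbx2 (log2 fold change 0.71, SE 0.18) and Tbx3 (1.75, SE 0.18). Tbx5 overlapped between the groups, at 9.10, 14.2 and 5.77 CPM in iRGCs and 10.1, 17.4 and 60.5 CPM in cRGCs. It was called lower (edgeR adjusted p = 0.0686), but not without cRGC replicate 3 (0.452), without iRGC replicate 1 (0.150) or 3 (0.159), with the replicate block (0.222), with the library total only (0.104) or by limma voom (0.125). Of 5 ventral genes, Vax2 (-1.07, SE 0.20) and Ephb3 were lower, Ephb2 was called lower in a call lost without iRGC replicate 1 or 2, without any 1 cRGC library, with the replicate block, with no filter on low counts and with the library total only, Aldh1a3 was higher and Vax1 was not called. Among 4 temporal genes Foxd1, a factor of temporal retina, was at 23.9, 27.9 and 35.7 CPM in iRGCs and 5.15, 7.32 and 11.9 CPM in cRGCs (log2 fold change 1.84, SE 0.31), while Epha6 was lower. Tbx5, Ephb3, Aldh1a3 and Epha6 were named after their values were seen. The lists of position thus did not move in 1 direction, and the part of position in the teneurin values was not tested.

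Over the 6 libraries, the genes most like Tenm2 were Garnl3, B4galnt1 and Ankrd13d. The measure was the mean absolute difference of log2 CPM, each gene centred on its own mean, over 12113 genes with at least 100 counts on average, and it was 0.0325, 0.0327 and 0.0527. Their log2 fold changes were -1.68, -1.74 and -1.68. By Pearson correlation over the same 6 libraries, which form 2 groups, the nearest genes were Igf1, Garnl3 and Clstn2. This is a description of the libraries, which all share the contrast of the groups.

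Promoters were looked at for genes that fell by a like amount. RefSeq entries (GRCm38.p6) of 250 bases before a start site existed for 9 of the 10 genes, and only those of Tenm4 (its outer start), Adgrl1, Flrt2 and Flrt3 lay within 7 bases of the 5′ end of the GENCODE gene. The 120 bases before the start of Tenm4, at chr7:96171124-96171243 on the plus strand, and of Adgrl1, at chr8:83899978-83900097 on the plus strand, are shown because their log2 fold changes, -1.03 and -0.96, were close.
Tenm4: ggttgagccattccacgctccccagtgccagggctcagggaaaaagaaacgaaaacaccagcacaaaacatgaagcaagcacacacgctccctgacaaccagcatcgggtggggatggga
Adgrl1: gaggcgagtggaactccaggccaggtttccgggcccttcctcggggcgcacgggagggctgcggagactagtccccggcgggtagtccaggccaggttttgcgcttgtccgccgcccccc

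The sequences are unlike in composition. Within 250 bases the Tenm4 promoter had 50.8% G and C and 4 CpG pairs, the Adgrl1 promoter 68.8% and 21, and the median of all 32851 entries was 52.4% and 6. On both strands 5 sets of letters were searched: TAATTA (homeodomain), ATGCAAAT (POU octamer), CCCNNGGG (Ebf), AACAAT (Sox) and CAGCTG (E-box). None occurred in these 250 bases of Tenm4, Adgrl1, Flrt2 or Flrt3, so no base is in capitals, and over all entries they occurred in 4.84%, 1.60%, 11.8%, 9.42% and 13.0%.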

How the data were processed

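RNA-seq libraries from sorted E16.5 iRGCs (n = 3) and cRGCs (n = 3) were analysed; the ATAC-seq samples were not analysed here. Per the labels and the study's methods, the authors mapped 50-base reads with HISAT2 2.1.0 to mm10 and made the deposited gene counts with HTSeq 0.11.1; the strand setting is not given in the sources used here. Rows that name no gene (reads on no feature, 12.3% to 23.3% of uniquely mapped reads, and ambiguous reads, 0.857% to 0.989%) were left out of totals. Of 47069 gene IDs, 46574 matched GENCODE M21, which gave symbols, exon lengths and coordinates. Counts on genes ranged from 28193178 to 33638083 per library.

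Counts were filtered with filterByExpr, scaled by TMM and fitted with edgeR 4.0.16 (quasi-likelihood, iRGC over cRGC, no covariate, R 4.3.3) over 15941 genes, with Benjamini-Hochberg adjustment over all of them and calls at 0.1. The common biological coefficient of variation was 36.3%. On simulated counts for these 15941 genes, 84 tested genes were changed by 1 and 107 by 2 on the log2 scale. The test recovered 52.4% and 78.5% of them, and 12.9% of its calls were false. In the real comparison 46.4% of tested genes were called, far more than were changed in the simulation, so these rates do not carry over to it. Shares and ratios were compared by exact two-sided permutation tests (SciPy 1.17.1). Alternatives were DESeq2 1.42.0, limma 3.58.1, other scaling, other filters, a replicate block and leaving out each library. The 10 genes and the lists were chosen with earlier results of these data known, and partners, cell types and position genes were read as counts and medians, with no set test. Named were the 10 genes, partners by largest change and level, 3 other adhesion receptors in each direction, and of other lists the most abundant and the leading 2 genes. Some results on listed genes are not reported here.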

Additional observations from a re-analysis of the deposited data

How the results depend on the processing

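The calls of Tenm1, Tenm2, Tenm3, Tenm4, Adgrl1 and Adgrl3 held in each of 15 alternative fits, and no gene of the 3 families was called higher in any. The labels do not say whether replicate numbers pair the libraries. Deviations of same-numbered libraries from their group means had correlations of -0.0142, -0.0446 and -0.0669, which cannot decide this with 3 libraries a group. A replicate block gave 7 genes called lower, as without it, and 6751 DEGs in all against 7395. The number called lower was 6 to 7 when each library was left out and 4 with a threshold of 1 on the absolute log2 fold change, a count that was 2 without iRGC replicate 3, without cRGC replicate 1, with upper quartile factors and with the library total only. The library total as the only scaling moved the median of all genes to 0.20 on the log2 scale, turned Adgrl2 to 0.0885 and called 2 intracellular partners higher in place of 0. Flrt1 turned to -0.12 without iRGC replicate 1 and to -0.14 without cRGC replicate 3, in a range of -0.14 to 0.27. Past a log2 fold change of 1, 3 intracellular partners were lower. Other adhesion receptors called lower numbered 3 by the DESeq2 Wald test, 2 with at least 10 counts in every library, 2 among protein-coding genes alone and 1 to 2 when each library was left out; with at least 10 counts in every library 6 were called higher in place of 10, as fewer genes were tested. The differences in share of Adgrl1, Adgrl2 and Adgrl3 kept their sign in each alternative. Where causes are not named, the cause was not tested. With 3 libraries a group, small differences such as that of Flrt1 were not resolved.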

Other observations

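Markers of the remaining cell types were read in the same fit. Of 6 tested photoreceptor precursor markers 5 were higher in iRGCs and Rxrg was lower, and of 7 amacrine markers 6 were higher. Their medians were 1.99 and 1.46 on the log2 scale. Over all tested genes, 23.3% were called higher and 23.1% lower. The photoreceptor count higher was 4 without cRGC replicate 1 and 4 without cRGC replicate 3. Of 4 tested erythroid markers 4 were called higher by edgeR, 2 by the DESeq2 Wald test, 1 by limma voom and 1 without iRGC replicate 2. These markers were at or near 0 in cRGCs and passed the filter on low counts only through the iRGC libraries, and with at least 10 counts in every library 0 were tested, so the count supports nothing. The list summed to 12.2, 92.7 and 15.2 CPM in iRGC replicates 1 to 3 and to 0, 5.11 and 0.290 CPM in the cRGC libraries, with Hbb-bs the most abundant. Of the tested genes of the other lists, 3 of 6 microglial, 3 of 4 mural, 1 of 4 fibroblast and 1 of 5 horizontal cell markers were called higher. The microglial count was 1 without iRGC replicate 2 and 1 without iRGC replicate 3 but 5 without iRGC replicate 1, the mural count was 2 by limma voom and 5 without iRGC replicate 1, and DESeq2 and limma voom each called 2 horizontal cell markers lower where edgeR called 0. With at least 10 counts in every library 0 microglial and 2 mural markers were tested, so the counts of these lists support nothing either. Of 5 pigment epithelium markers 0 were called by edgeR (0 also at an unadjusted p below 0.05) and 1 higher and 1 lower by DESeq2 and by limma voom, and of 2 optic stalk astrocyte markers 1 was higher and 1 lower. Of 5 sex-linked markers only Ddx3y was called, higher in iRGCs (log2 fold change 1.00), and without cRGC replicate 3 the counts were 3 higher and 1 lower. Rxrg and Ddx3y were named after their values were seen.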
